A study of Homo sapiens with 16 samples.

Results

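The D cyclins, their kinases and the inhibitors that bind them were followed here through 10 genes, CCND1, CCND2, CCND3, CDK4, CDK6, CDKN1A, CDKN1B, CDKN1C, CDKN2B and CDKN2C, taken by name among the 42665 gene names of the array. All non-control probes carrying one of these names were used, which gave 11 of 58201 probes, 1 for each gene and a second for CDKN1B. RNA came from 16HBE, a human bronchial epithelial line immortalised with the SV40 large T antigen, a viral protein known to bind RB and p53. The 4 groups had 4 arrays each, for 16 in all. 16HBE-WT cells carried unedited MET, the receptor of hepatocyte growth factor (HGF), and 16HBE-ex14 cells were clone F, a single clone in which CRISPR/Cas9 editing made MET transcripts skip exon 14. Cells of all 4 groups had spent 2 h in medium with no serum, and 16HBE-WT+HGF and 16HBE-ex14+HGF cells then received HGF at 20 ng/mL for 24 h. Since the edited genotype was 1 clone, a difference between the genotypes cannot be told apart from a difference between a clone and its parental line, and p-values measure the spread between arrays.

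D cyclins are made when growth factors act on a cell and join CDK4 or CDK6 into kinases that phosphorylate RB, which frees E2F to switch on the genes of S phase. The INK4 proteins p15 (CDKN2B) and p18 (CDKN2C) bind CDK4 and CDK6 and keep the cyclin away. The Cip/Kip proteins p21 (CDKN1A), p27 (CDKN1B) and p57 (CDKN1C) bind the assembled cyclin-kinase complexes, chiefly those of CDK2. HGF is known both as a mitogen and as a factor that makes epithelial cells scatter. The arrays measured RNA only, and p27 and the D cyclins are also set by the rate at which their proteins are degraded.

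All 11 probes were well above background on all 16 arrays and none was saturated. Levels are log2 intensities relative to the 75th percentile of their array, so 0 is the level of that percentile, and each probe is compared only with itself. A gene is said to have changed when limma gave a Benjamini-Hochberg adjusted p below 0.05, over 34599 tested probes, with a fold change above 1.5. CCND1 was printed as 10 spots on each array, and the SD of its log2 signal over the spots of an array ran from 0.038 to 0.101, with a median of 0.055. The SD between the 4 arrays of a group was 0.07 to 0.29 for the same probe. Between 49% and 60.3% of probes were well above background per array. The first principal component of the arrays, with 30.1% of the variance, parted the genotypes, and the second, with 15.1%, parted the 2 slides, each of which held 2 arrays of every group.

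The identity of the line was checked by its markers. All 8 epithelial markers were well above background on all 16 arrays, while among 8 fibroblast markers COL1A2, COL3A1, DCN and THY1 were so on 0 arrays, LUM on 8 and the other 3 on all 16. Of 4 endothelial markers, PECAM1 and KDR were above background on 0 arrays, and CDH5 and VWF on all 16. The leukocyte markers PTPRC, CD3E, CD14 and LST1 were above background on all 16. The summed level of the 8 fibroblast markers ran from -0.39 to 0.33 in 16HBE-WT and from -1.03 to -0.59 in 16HBE-ex14. The summed levels of the endothelial and leukocyte markers overlapped between these groups. The basal keratin KRT5 differed by -2.57 between the genotypes without HGF and by -4.26 with it, and KRT14 by -1.74 and -2.21. After HGF in 16HBE-ex14, KRT5 changed by -2.32 and KRT14 by -0.97, both past the limits given above. The part of such shifts in the differences and responses below was not tested. In bulk RNA, fewer cells with a transcript and less of it per cell cannot be told apart.

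The reading of each gene rests on a probe of 60 bases, and the first 30 bases are shown, as the array design gives them, for the 4 probes of CCND2, CDKN1A and CDKN1B, which changed in a comparison below. Positions are on hg19. The 2 probes of CDKN1B do not overlap, so they read the transcript at separate places.
CCND2, chr12:4414040-4414099, plus strand: atcgggccattggattttttccattatgtt
CDKN1A, chr6:36652178-36652237, plus strand: tctgctgcaggggacagcagaggaagacca
CDKN1B, first probe, chr12:12871119-12871178, plus strand: gcgcctttaattggggctccggctaactct
CDKN1B, second probe, chr12:12874940-12874999, plus strand: agcacacttgtaggataagtgaaatggata

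To ask how the cell cycle entry genes differed between the genotypes, 16HBE-ex14 was first set against 16HBE-WT without HGF. CCND2 and CDKN1B were higher in 16HBE-ex14, by 3.14-fold and 1.65-fold, and CDKN2C and CDKN1A were lower, by 1.85-fold and 1.87-fold. These 4 of 10 genes passed the test, against 9.4% of all tested probes. Both directions were present among them, as they were among all probes, of which 4.51% were called higher and 4.88% lower. When each array was centred on its median instead, the split over all probes moved from 1562 higher and 1690 lower to 2640 and 1036, and the median difference of all probes from -0.02 to 0.12. By the adjusted p alone, with no fold limit, 6 of 10 genes passed, against 18.4% of all probes, and groups did not overlap for 7 of 10, against 21.4%.

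**Figure D1:**
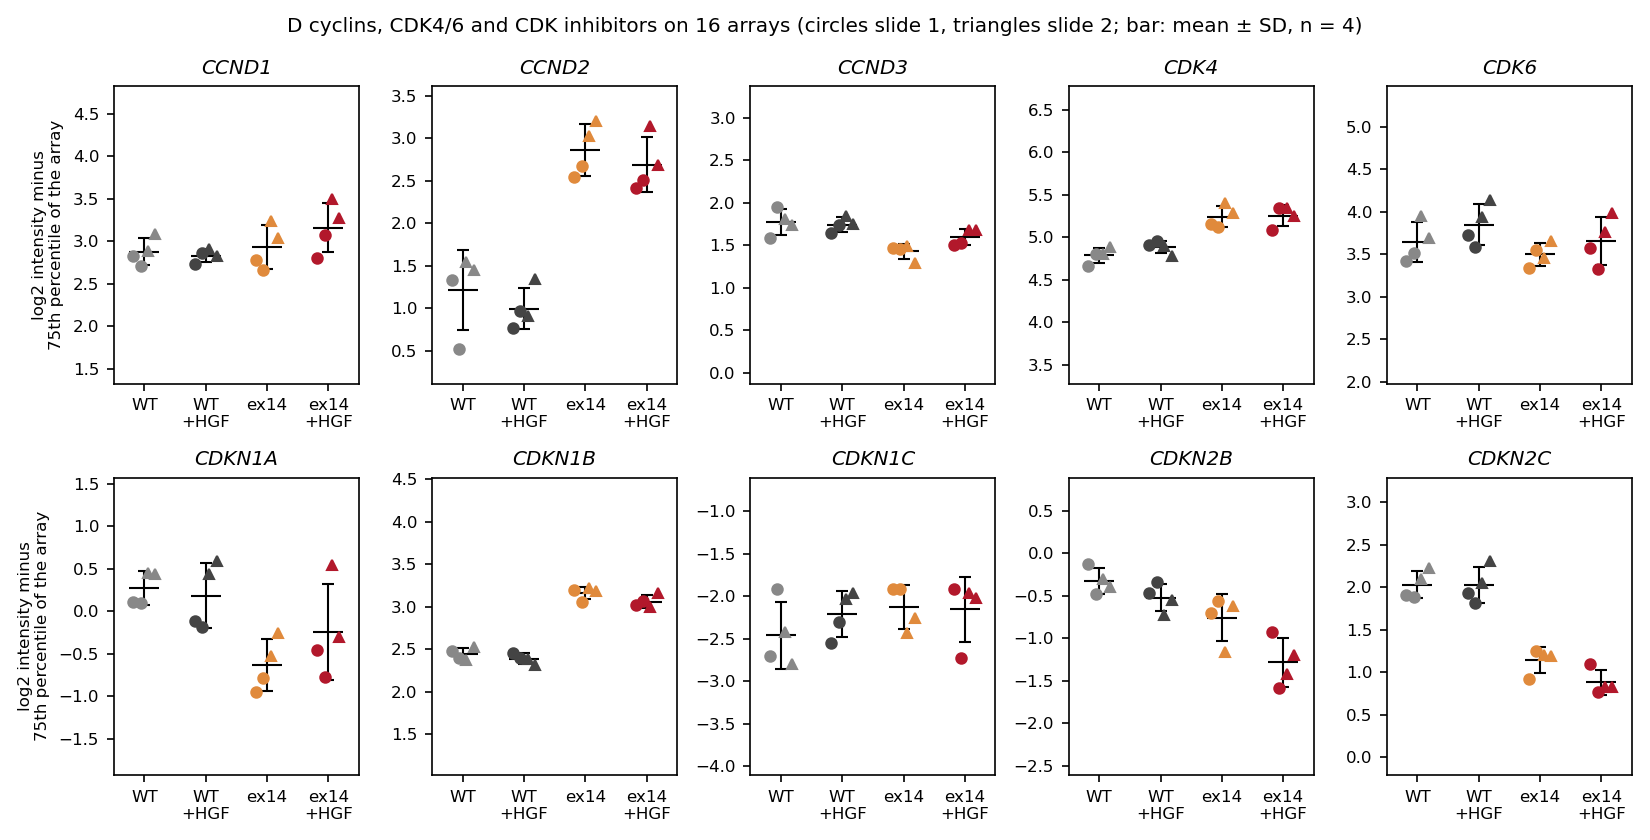
Log2 intensity minus the 75th percentile of the array, on the y axis, for the 10 genes in the 4 groups, on the x axis; each point is an array (circles slide 1, triangles slide 2), bars are the mean ± SD over 4 arrays, and every panel spans the same height. The CCND2 points of 16HBE-ex14 (2.55 to 3.21) lie above those of 16HBE-WT (0.52 to 1.55), and the CDKN2C points lie below.

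CCND2, the D cyclin with the largest difference, read 1.33, 0.52, 1.55 and 1.46 on the 4 16HBE-WT arrays and 2.55, 2.68, 3.03 and 3.21 on the 16HBE-ex14 arrays. No array of either genotype reached the range of the other, although 1 16HBE-WT array was lower than its 3 companions. The means were 1.22 ± 0.47 and 2.87 ± 0.31 (SD, n = 4), and the difference was 1.65 on the log2 scale (SE 0.23, adjusted p = 0.000212 by limma). Over the 4 rows of the slides it ran from 1.22 to 2.16, where its sign followed from groups that did not overlap.

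CCND1, the D cyclin most often named as a target of growth factor signalling, averaged 2.88 ± 0.16 in 16HBE-WT and 2.93 ± 0.26 in 16HBE-ex14 (SD, n = 4). Its groups overlapped and the 95% interval of the difference, -0.27 to 0.38, held no change of 1.5-fold. CCND3 went from 1.77 ± 0.15 to 1.43 ± 0.09, a difference of -0.34 (SE 0.09) whose adjusted p of 0.0188 passed while its fold did not, so the 3 D cyclins did not move one way.

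CDK4 was the kinase gene with a difference beyond its spread. Its arrays read 4.66 to 4.89 in 16HBE-WT and 5.13 to 5.40 in 16HBE-ex14, without overlap, and the difference of 0.46 (SE 0.09, adjusted p = 0.0029) came to 1.37-fold, under the 1.5-fold limit, which it passed only when arrays were centred on their median (0.59). CDK6 overlapped between the genotypes, with a difference of -0.14 and a 95% interval of -0.49 to 0.20.

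Among the Cip/Kip inhibitors, CDKN1B was read by a pair of separate probes. Its first probe gave 2.48, 2.40, 2.37 and 2.53 in 16HBE-WT and 3.19, 3.06, 3.23 and 3.18 in 16HBE-ex14. The SD over the arrays was 0.07 in either genotype and the groups were far apart. The difference was 0.72 (SE 0.08, adjusted p = 2.05e-05), the smallest adjusted p of the 10 genes, and the second probe gave 0.59 (SE 0.09, adjusted p = 0.0006).

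CDKN1A, a gene that p53 is known to switch on, read 0.10, 0.09, 0.45 and 0.44 in 16HBE-WT and -0.95, -0.79, -0.53 and -0.26 in 16HBE-ex14. The groups did not overlap, but in both genotypes the arrays of slide 2 lay above those of slide 1. The difference was -0.90 (SE 0.26, adjusted p = 0.0241). Within slide 1 it was -0.97 (adjusted p = 0.03) and within slide 2 -0.84 (adjusted p = 0.165), and with slide as a block its adjusted p was 0.001. The call was lost when any of 4 single arrays was left out, replicates 1 and 2 of 16HBE-ex14 (adjusted p = 0.0668 and 0.0606) and replicates 3 and 4 of 16HBE-WT (0.0622 and 0.0596).

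CDKN1C ran from -2.79 to -1.92 in 16HBE-WT and from -2.43 to -1.91 in 16HBE-ex14, with overlap. Its difference of 0.33 had a 95% interval of -0.15 to 0.81, which left room for a change of 1.5-fold.

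Of the INK4 inhibitors, CDKN2C read 1.91, 1.89, 2.10 and 2.23 in 16HBE-WT against 0.92, 1.26, 1.20 and 1.20 in 16HBE-ex14. Every 16HBE-ex14 array was below every 16HBE-WT array, and the difference was -0.89 (SE 0.13, adjusted p = 0.00022). CDKN2B, a gene known for its induction by TGF-beta, read -0.13, -0.47, -0.31 and -0.40 against -0.70, -0.56, -1.16 and -0.62. These groups did not overlap either, yet the difference of -0.43 (SE 0.16, adjusted p = 0.0763) did not pass.

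The same question was asked of cells that had received HGF. Here 4 of 10 genes passed, against 10.8% of all tested probes, 2 of them higher in 16HBE-ex14+HGF and 2 lower, against 5.32% and 5.52%. By the adjusted p alone 5 passed, against 20.6%, and groups did not overlap for 5 genes, against 23.9%. CCND2 and CDKN1B were again higher in the edited cells and CDKN2C again lower, while the fourth gene was CDKN2B, lower by 1.69-fold, in place of CDKN1A. The arrays differ from those compared above, and no test was made of whether a gene passed in one comparison and not in the other beyond the test of the HGF responses given below.

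**Figure D2:**
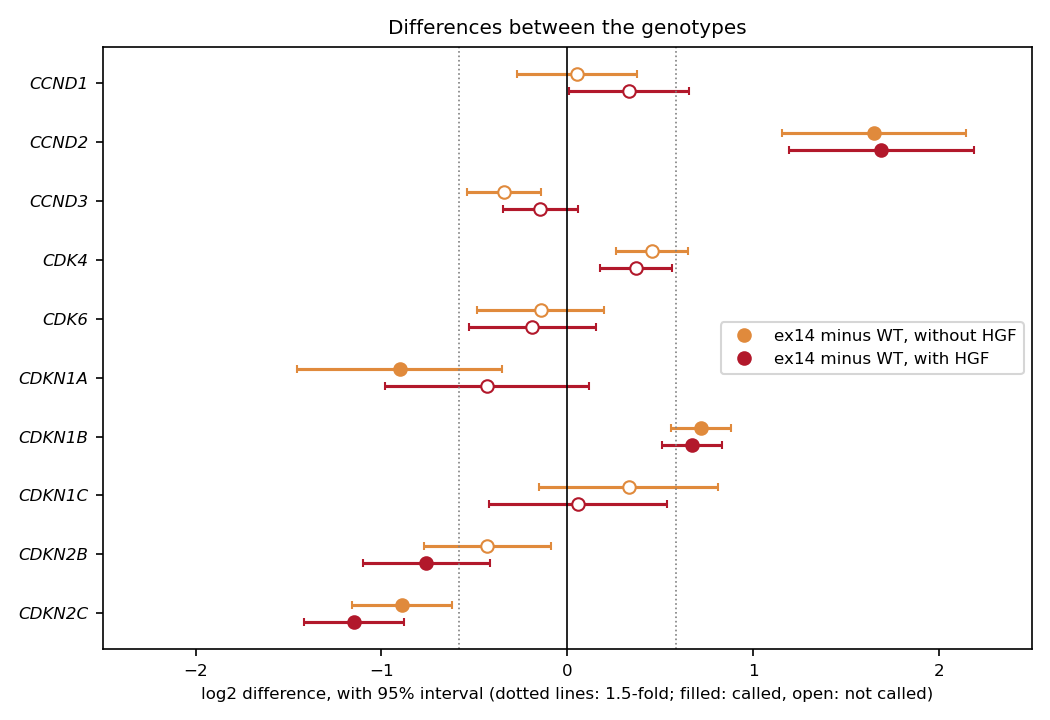
Log2 difference between 16HBE-ex14 and 16HBE-WT for each gene with its 95% interval from limma, without HGF (orange) and with HGF (red); filled points passed the adjusted p and the fold limit, drawn as dotted lines at 1.5-fold. CCND2 (1.65 and 1.69) and CDKN1B (0.72 and 0.67) lie right of 0 and CDKN2C (-0.89 and -1.15) left of 0 in both.

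CCND2 read 0.77, 0.98, 0.91 and 1.34 in 16HBE-WT+HGF and 2.42, 2.51, 3.14 and 2.69 in 16HBE-ex14+HGF. The difference was 1.69 (SE 0.23, adjusted p = 0.000148 by limma). It exceeded the difference without HGF by 0.04 (95% interval -0.66 to 0.74), so an equal width was not shown. CDKN1B read 2.46, 2.40, 2.38 and 2.32 against 3.02, 3.06, 2.99 and 3.16 with its first probe, a difference of 0.67 (SE 0.08, adjusted p = 3.23e-05).

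The second CDKN1B probe gave 0.41 (SE 0.09, adjusted p = 0.00668), in the same direction but under the fold limit. The gap between the 2 probes on an array averaged 0.68 ± 0.05 in 16HBE-ex14+HGF and 0.41 ± 0.06 in 16HBE-WT+HGF (SD, n = 4), a difference of 0.26 with an exact permutation p of 0.0286, the smallest the 70 assignments allow, or 0.0572 adjusted over the 2 comparisons made. Without HGF the same gap differed by 0.13 (exact permutation p = 0.257, two-sided, n = 4). The probes therefore gave 1 direction. With so few assignments, the adjusted p with HGF could fall below 0.05 only if the p without HGF did so too. Equal size was therefore not shown.

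CDKN2C read 1.93, 1.82, 2.06 and 2.31 in 16HBE-WT+HGF and 1.10, 0.77, 0.83 and 0.83 in 16HBE-ex14+HGF. The difference was -1.15 (SE 0.13, adjusted p = 2.33e-05), or 2.22-fold lower. CDKN2B read -0.47, -0.34, -0.73 and -0.55 against -0.92, -1.59, -1.42 and -1.19, and the difference was -0.76 (SE 0.16, adjusted p = 0.00345). No array of these 2 genes crossed into the other genotype's range. Within the slides the CDKN2B difference was -0.85 (adjusted p = 0.104) and -0.67 (adjusted p = 0.129), each with 2 arrays a group.

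CDKN1A overlapped with HGF, since a single 16HBE-ex14+HGF array read 0.55 while the other 3 read -0.46, -0.77 and -0.31. The 16HBE-WT+HGF arrays ran from -0.18 to 0.59, and the difference was -0.43 (SE 0.26, adjusted p = 0.28). Without that array, replicate 3, it was -0.70 (adjusted p = 0.0402) and was called. CDK4 differed by 0.37 (adjusted p = 0.00974, 1.29-fold) with no overlap. CCND1 differed by 0.33 (adjusted p = 0.148), CCND3 by -0.15, CDK6 by -0.19 and CDKN1C by 0.06, each with overlap.

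A central question of the study was what HGF does in cells of each genotype. In 16HBE-ex14 cells, 0 of 10 genes changed after HGF by limma, against 2% of all tested probes, and 1 of them, CDKN2B, had an unadjusted p below 0.05, against 14.2% of probes. In 16HBE-WT cells, 0 of 10 changed, against 0% of all probes, and 0 had an unadjusted p below 0.05, against 4.9% of probes. For 7 of 10 genes in each genotype, the 95% interval of the response lay inside 1.5-fold in either direction. The genes whose intervals reached further were CCND2, CDKN1A and CDKN2B in 16HBE-ex14 and CCND2, CDKN1A and CDKN1C in 16HBE-WT.

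**Figure D3:**
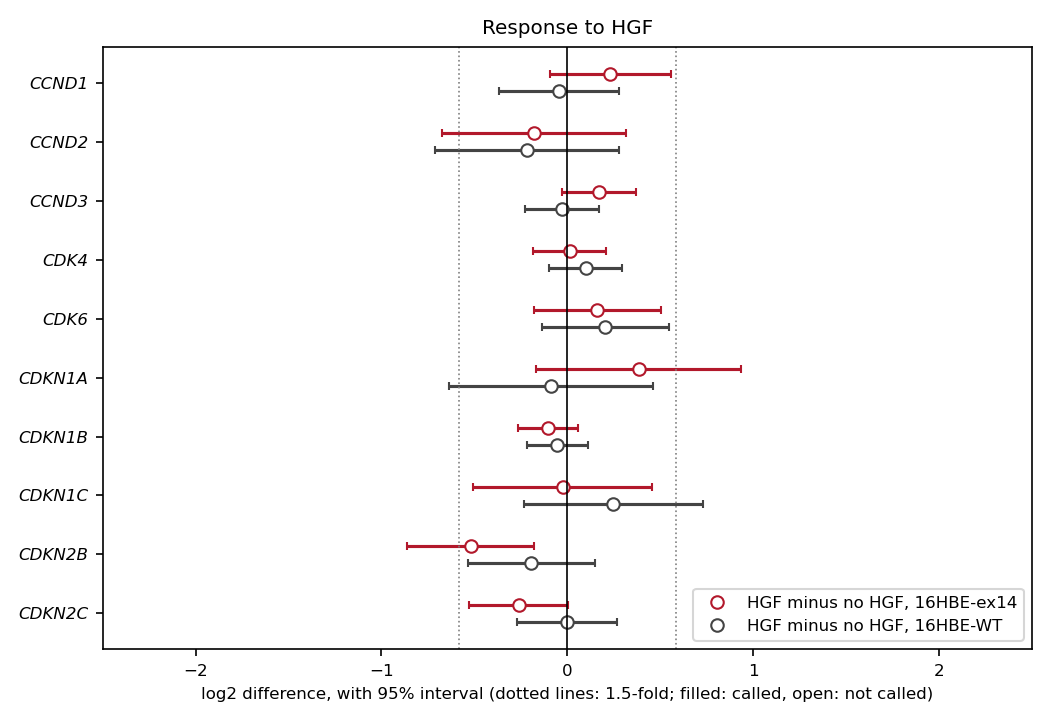
Log2 response to HGF for each gene with its 95% interval from limma, in 16HBE-ex14 (red) and 16HBE-WT (grey); all points are open because no gene passed. The interval of CDKN2B in 16HBE-ex14, -0.86 to -0.18, lies left of 0.

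In 16HBE-ex14, CDKN2B read -0.70, -0.56, -1.16 and -0.62 without HGF and -0.92, -1.59, -1.42 and -1.19 with it. The difference was below 0 in all 4 rows of the slides, from -1.03 to -0.22. Whether the rows pair cultures is not known, and the share of all probes with 1 sign in all 4 rows was not counted. The groups overlapped through the third array without HGF, and the response of -0.52 (SE 0.16, unadjusted p = 0.00536, adjusted p = 0.11) did not pass. It was called when that array (16HBE-ex14 replicate 3) was left out, at -0.66 (adjusted p = 0.0251), and when 16HBE-ex14+HGF replicate 1 was left out, at -0.64 (adjusted p = 0.0458); over all 16 arrays left out in turn its adjusted p ran from 0.0251 to 0.304. With slide as a block the adjusted p was 0.0724. In 16HBE-WT its response was -0.19 (95% interval -0.53 to 0.15).

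CDKN2C gave -0.26 in 16HBE-ex14 (adjusted p = 0.366) and -0.002 in 16HBE-WT. CDKN1A gave 0.38 (95% interval -0.17 to 0.94) and -0.09, CDKN1B -0.10 and -0.05, and CDKN1C -0.03 and 0.25. The second CDKN1B probe gave -0.25 in 16HBE-ex14 with groups that did not overlap, as was so for 8.84% of all probes, and an adjusted p of 0.228.

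CCND1 read 2.78, 2.66, 3.24 and 3.04 in 16HBE-ex14 and 2.81, 3.07, 3.49 and 3.27 after HGF. It was higher after HGF in all 4 rows, by 0.02 to 0.41, a count with the limits given for CDKN2B. The groups overlapped and the mean response of 0.23 had a 95% interval of -0.09 to 0.56. In 16HBE-WT it was -0.05 (95% interval -0.37 to 0.28). CCND3 gave 0.17 in 16HBE-ex14, where the groups did not overlap (adjusted p = 0.444), and -0.03 in 16HBE-WT. CCND2 gave -0.18 and -0.22, CDK4 0.01 and 0.10, and CDK6 0.16 and 0.21.

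Whether the response differed between the genotypes was tested as an interaction. By limma 0 of 10 genes passed, against 0% of all tested probes, with 0 of 10 at an unadjusted p below 0.05 against 4.62% of probes. The largest differences between the responses were those of CDKN1A, 0.47 (95% interval -0.31 to 1.25), and CDKN2B, -0.33 (95% interval -0.81 to 0.15). For 6 of the 10 genes, these included, the interval was wide enough to hold a difference of 1.5-fold, so equal responses were not shown for them.

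The pathway around these genes was read from 8 lists, described by their counts and medians beside the background of all probes (median difference -0.02 between the genotypes without HGF, 4.51% called higher and 4.88% lower; with HGF 5.32% and 5.52%). Where the list genes lie on the chromosomes was not examined, so a regional difference of the clone was not tested for them. Of 13 genes of RB and E2F, 1 was higher in 16HBE-ex14 without HGF, RBL2, which encodes the pocket protein p130 (0.59, adjusted p = 0.000629), and the list median was 0.20. Of 15 E2F target genes of S phase, 2 were higher and 1 lower with a median of 0.26, against 4.51% and 4.88% of all probes. The higher genes, CDT1 (1.19) and GINS2 (1.10), load and start the replication helicase, and the lower one, RRM2 (-0.64), is a subunit of ribonucleotide reductase. RRM2 was called under only 1 of 4 other scalings and RBL2 under 2, while CDT1 and GINS2 were called under all 4. With HGF 3 were higher, CDT1 (1.16), GINS2 (1.12) and CDC6 (0.69), and RRM2 was lower (-0.71), against 5.32% and 5.52% of all probes, and CDC6 lost its call under normexp.

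Of 15 p53 target genes besides CDKN1A, 0 were higher and 3 lower in 16HBE-ex14 without HGF, with a median of -0.15, against 4.51% and 4.88% of all probes. They were SESN1 (-1.53, adjusted p = 0.000144), a stress-induced inhibitor of mTORC1, TP53INP1 (-0.84) and the antiproliferative gene BTG2 (-0.63). With HGF 4 of 15 were lower, against 5.52% of all probes, the same 3 and GADD45A (-0.76). BTG2 was called under 1 of 4 other scalings without HGF and under 3 with it, and TP53INP1 under 3 and 1. SESN1 was called under all 4 without HGF, at -1.44 to -0.65, and under 3 with it.

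Of 10 ubiquitin ligase parts known to act on D cyclins or p27, FBXW8 was higher without HGF and 0 were lower, a count near the 9.4% called among all probes, and the median was 0.19. FBXW8 stood at 0.65, and at 0.20 under normexp, where it was not called. Of 8 TGF-beta target genes, 6 were matched by symbol, and CTGF and CYR61 were searched under these older symbols only. Of the 6, TGFBI was lower (-1.13, adjusted p = 6.73e-05) and 0 were higher, with a median of -0.11. Of 9 growth factor transcription factors, FOSL1 was higher (0.60) and FOXO1, a factor known to act on the CDKN1B gene, was lower (-1.01, adjusted p = 0.00157). A link between the RNA of FOXO1 and that of CDKN1B was not tested. With HGF FOSL1 was higher (1.10), under all 4 other scalings too, and the lower genes were FOXO3 (-0.80) and FOXO1 (-0.65), the latter called under 1 of the 4. Without HGF, FBXW8, FOSL1 and FOXO1 were each called under 3 of the 4 and TGFBI under all 4. Cyclin E and its kinase, 4 genes, had 0 called without HGF, and CCNE1 was higher in 16HBE-ex14+HGF than in 16HBE-WT+HGF (0.65, adjusted p = 0.000544). The other INK4 genes, CDKN2A and CDKN2D, were not called in any of the 4 comparisons of groups.

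**Figure D4:**
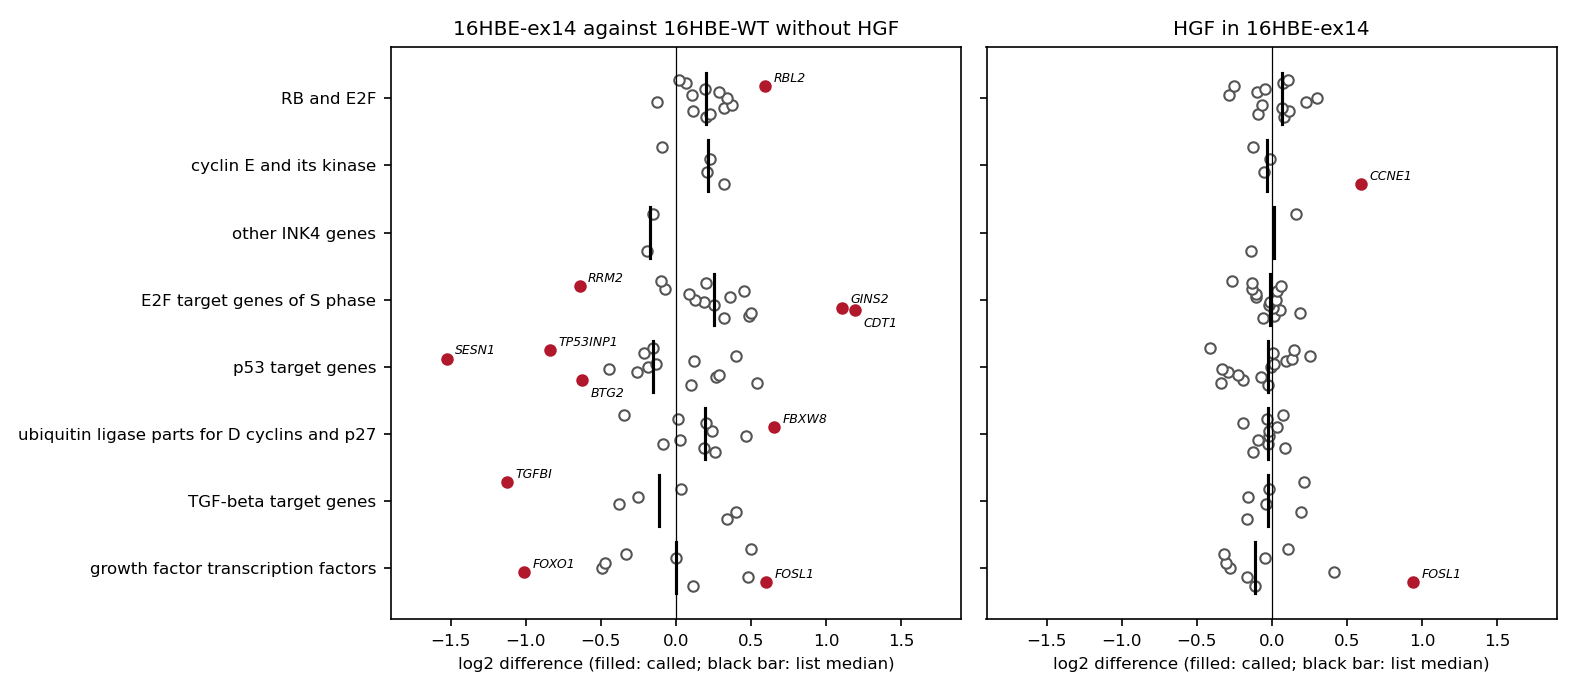
Log2 difference of each gene of the 8 lists between 16HBE-ex14 and 16HBE-WT without HGF (left) and after HGF in 16HBE-ex14 (right); filled points passed the test and are named, and black bars are list medians. After HGF, CCNE1 (0.59) and FOSL1 (0.94) are the named genes.

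After HGF in 16HBE-ex14, 2 of the 74 tested genes of the 8 lists rose and 0 fell, or 2.7%, a share near the 2% of all probes. CCNE1, the cyclin that acts after the D cyclins, rose by 0.59 (SE 0.11, adjusted p = 0.00745), just past the fold limit, and under the 4 other scalings its rise was 0.44 to 0.57 and was not called. FOSL1, an AP-1 subunit induced through ERK, rose by 0.94 (SE 0.19, adjusted p = 0.0168) and was called under 2 of the 4. The 15 S phase targets of E2F had 0 called and a median of -0.01, next to a median of 0.05 over all probes. In 16HBE-WT no gene of the lists was called after HGF, as no probe was.

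Because 16HBE-ex14 was a clone, the genes beside each member were read as well. Within 2 Mb of the CDKN1B probe on chromosome 12 lay 40 other tested genes, of which 31 had a difference above 0 without HGF, with a median of 0.38. Of these 8 were called higher and 1 lower, against 4.51% and 4.88% of all probes, and among the higher ones were GPR19 (0.76), at 57 kb, and LRP6 (0.70). The median over all probes was -0.02, and CDKN1B itself stood at 0.72. With HGF the same neighbours had a median of 0.33.

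Around CCND2, also on chromosome 12, the 43 neighbours had a median of 0.04, with 25 above 0, 6 called higher and 0 lower, against the same shares. Among the higher ones were ITFG2 (0.88), TEAD4 (0.85) and DYRK4 (0.82). With HGF the median was 0.17, with 6 called higher and 1 lower. The neighbours included many noncoding entries, which were not set apart, and a shift of the region was not tested. The neighbour with the largest difference was CCND2-AS1, an antisense transcript named here after its value was seen, at 1.92 (adjusted p = 2.37e-05), or 0.89 to 2.05 under the 4 other scalings, all with a call. The 33 neighbours of CDKN2C had a median of -0.18 without HGF, with 8 above 0, 0 called higher and 1 lower, which is under the share of all probes. With HGF their median was -0.28, with 7 above 0, 0 called higher and 3 lower, against 5.32% and 5.52% of all probes. The 61 neighbours of CDKN1A had a median of -0.11 without HGF, with 0 called higher and 2 lower, under the share of all probes. With HGF their median was -0.11, with 1 called higher and 1 lower. Without HGF the medians for the other 6 genes lay between -0.08 and 0.07. Gene copy number was not measured on these arrays.

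**Figure D5:**
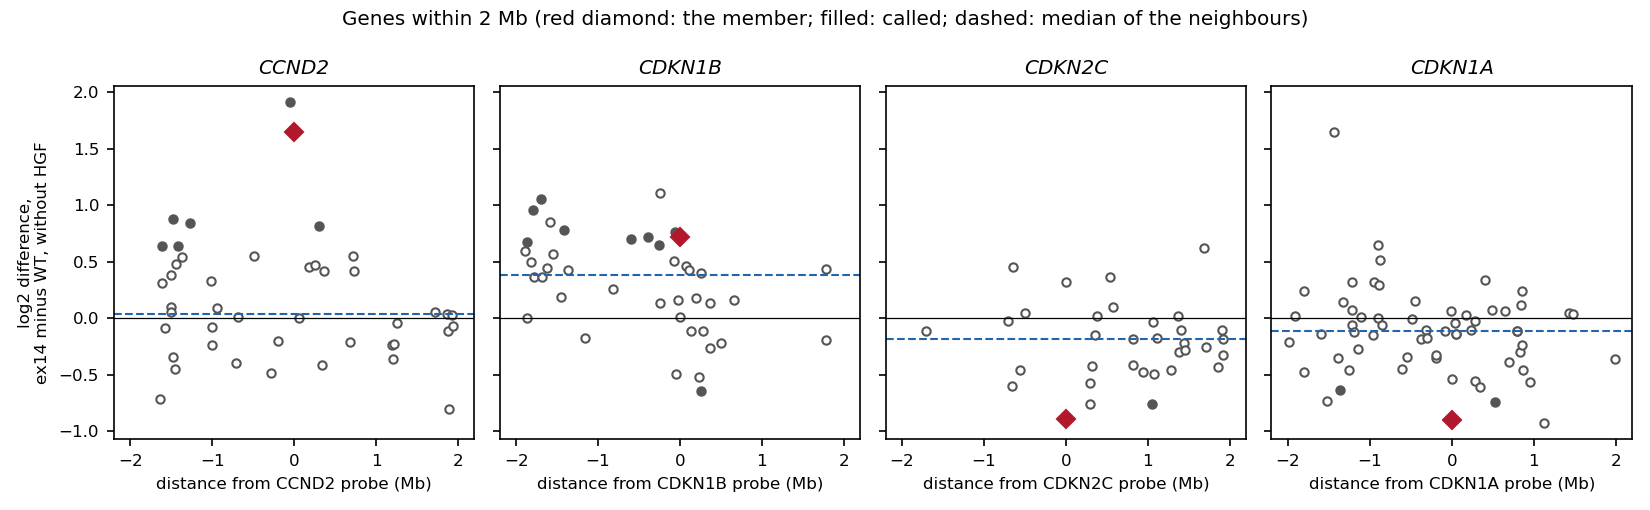
Log2 difference between 16HBE-ex14 and 16HBE-WT without HGF of the tested genes within 2 Mb of CCND2, CDKN1B, CDKN2C and CDKN1A, against distance from the gene's probe in Mb; red diamonds are the genes themselves, filled points passed the test and dashed lines are the medians of the neighbours. The median around CDKN1B (0.38) is the one farthest from 0.

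The genes whose pattern over the 16 arrays was most like that of CDKN1B were EXOC6 and C16orf95 (Pearson r = 0.983 each) and METTL16 (0.981), and those most like CDKN2B were TFPI (0.966), SP110 (0.961) and FMR1 (0.951). These r values describe arrays of 4 groups that share their genotype difference and 2 slides, with n = 16, and none of these genes lies on the chromosome of the gene it resembles.

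The 250 bases before the transcription start were searched in RefSeq sequence (GRCh38.p14), which listed 12 starts for 7 of the 10 genes. The 3 inhibitor genes with a single listed start are printed because each was called between the genotypes. CDKN1A was called lower in the edited cells only without HGF and CDKN2B only with HGF, while CDKN1B was called higher in both settings. Capitals mark GGGCGG or its reverse complement CCGCCC, the letters bound by SP1, and matches that overlap run together.
CDKN1A, chr6:36678464-36678713, plus strand: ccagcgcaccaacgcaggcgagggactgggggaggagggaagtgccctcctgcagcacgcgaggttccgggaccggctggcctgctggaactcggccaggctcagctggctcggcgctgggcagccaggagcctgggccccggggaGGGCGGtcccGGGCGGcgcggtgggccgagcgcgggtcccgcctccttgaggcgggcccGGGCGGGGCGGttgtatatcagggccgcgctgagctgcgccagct
CDKN2B, chr9:22009306-22009555, minus strand: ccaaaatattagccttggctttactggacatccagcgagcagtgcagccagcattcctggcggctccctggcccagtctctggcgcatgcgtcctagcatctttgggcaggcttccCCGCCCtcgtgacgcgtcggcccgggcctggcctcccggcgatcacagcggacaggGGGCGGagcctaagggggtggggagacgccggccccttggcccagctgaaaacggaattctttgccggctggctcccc
CDKN1B, chr12:12717118-12717367, plus strand: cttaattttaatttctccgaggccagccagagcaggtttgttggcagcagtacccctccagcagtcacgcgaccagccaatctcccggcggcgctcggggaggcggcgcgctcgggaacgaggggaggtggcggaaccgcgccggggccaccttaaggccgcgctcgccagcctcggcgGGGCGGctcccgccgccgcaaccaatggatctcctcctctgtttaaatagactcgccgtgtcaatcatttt

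The SP1 letters were found 4 times before CDKN1A, 2 times before CDKN2B and 1 time before CDKN1B, and before 9 of the 12 starts, against 42.6% of 35116 listed promoters of the same length. The E-box CACGTG was found before 3 of the 12 starts, those of CDK4 and 2 of CDKN2C, against 6.34% of promoters. The letters TTTNNCGC (E2F) and TGANTCA (AP-1), read on both strands, were in none of the 12 windows and in 5.92% and 6.57% of all promoters.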

How the data were processed

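Gene expression had been measured on 16 Agilent arrays with 1 colour, 4 per group. The authors' files hold the output of Agilent Feature Extraction 10.7.3.1, per the file headers, and the deposited processed signal of each spot is a linear intensity after background subtraction; the deposited value table equals it at all 1007616 values. Groups follow the genotype and treatment fields of the labels; replicates were numbered by slide position. The study grew its replicates a week apart, but the labels do not tie arrays to weeks, so whether the slide rows pair cultures is not known.

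Spots marked as outliers were dropped. Log2 intensities were set relative to their array's 75th percentile and averaged per probe. The test covered the 34599 of 58201 probes that exceeded background clearly on 4 or more arrays, and was made with limma 3.58.1 in R 4.3.3 on 1 mean per group over all 16 arrays; Benjamini-Hochberg adjustment covered all tested probes in each of 5 comparisons. A gene was read from its brightest tested probe. Exact permutation tests, motifs and plots used Python 3.11.15, scipy 1.17.1, pandas 2.3.3 and matplotlib 3.10.9. The scripts were tested on simulated data. The number of arrays limits the precision.

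All members were named, and of each pathway list the called genes, at most 4 per comparison. The 10 genes and all lists were chosen with earlier results of these data known. Alternatives were other scalings, background corrections, filters, blocks, slides, priors and probes, and leaving out each array. Some probe sequences and a marker are not reported here.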

Additional observations from a re-analysis of the deposited data

Results flagged for a closer look

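The CDKN1C value of 16HBE-ex14+HGF replicate 2, at -2.73, stood apart from the other 3 arrays of its group, which read -1.91, -1.96 and -2.02. It was the only such array in the 40 groups of 4 examined for the 10 genes, and chance marks about 1 in 20 groups.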

How the results depend on the processing

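Across 31 alternatives no called difference changed sign. CCND2 kept its call between the genotypes under all 31, without HGF (1.42 to 1.79) and with HGF (1.54 to 1.80), as did CDKN2C with HGF (-1.35 to -0.94). Without HGF, the arrays of slide 2 alone called 2 of the 10 genes, CCND2 and CDKN2C, where 2 arrays a group were left; there CDKN1B gave 0.75 (adjusted p = 0.0516) and CDKN1A -0.84 (adjusted p = 0.165). Leaving out each array in turn gave 0 to 1 called genes for HGF in 16HBE-ex14, the gene being CDKN2B. CDKN1A lost its call under 7 alternatives, among them array median (adjusted p = 0.0616) and spike-in scaling (0.0729), with adjusted p from 0.001 to 0.165 over all 31. CDKN2B with HGF lost its call under normexp background correction, by its fold (-0.54), and within either slide. CDKN1B with HGF lost it when its probes were averaged, by its fold (0.54). CDKN2C without HGF lost it on slide 1 alone (adjusted p = 0.0563). Over all probes, normexp called 1489 differences between the genotypes without HGF where 3252 were called with the processed signal, and 411 for HGF in 16HBE-ex14 in place of 693. That count was 246 with only the arrays compared, and leaving out 1 array gave 346 (16HBE-ex14 replicate 2), 374 (16HBE-ex14 replicate 4), 377 (16HBE-ex14+HGF replicate 3) or 442 (16HBE-ex14+HGF replicate 4) and at most 977, so the 2% given as background moves with it. The causes were not tested. With array row as a replicate block the called genes were the same in every comparison, 4 of 10 between the genotypes without HGF and 4 with HGF. Changes of dim transcripts are limited by background. The lowest value still well above background on an array was -4.4 on this scale, as a median over the arrays, and the background level itself is not given.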
